A study of Mus musculus with 18 samples.

Results

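The transcripts encoded by mitochondrial DNA were followed in the pancreas of mice of 3 genotypes. They were taken as every gene of the deposited table whose symbol begins with mt- and whose chromosome is MT. Of 25651 genes in the table, 35 met this rule. They comprised all 13 messenger RNA genes of the mitochondrial genome, both ribosomal RNA genes, and 20 of its 22 transfer RNA genes. The transfer RNA genes mt-Tr and mt-Te have no row in the table and were not analysed here. The start and end of each of the 35 genes equal those of GENCODE M21, which uses genome build GRCm38.

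RNA primed at its poly(A) tail was counted in the snap-frozen pancreas of 18 mice, 1 library a mouse. All were 20 weeks old, of a mixed 129Sv x C57BL/6 background and kept free of specified pathogens. There were 6 wild-type (WT) mice, 7 mice of genotype KPC and 5 mice of genotype KPC ASC KO. KPC mice are a model of pancreatic cancer. The labels name neither the alleles of that genotype nor the promoter that would drive recombination, nor whether ASC is lost in every cell. ASC, encoded by Pycard, is the adaptor that joins inflammasome sensors to caspase 1. Both groups that are not wild type carry the KPC genotype.

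Mammalian mitochondrial DNA is transcribed from both strands into long precursors, and the transfer RNAs that lie between the other genes are cut out to release them. Its 13 proteins are core subunits of complexes I, III and IV of the respiratory chain and of the ATP synthase, complex V. All other subunits, and all proteins that copy, transcribe and translate this genome, are encoded in the nucleus. Most mitochondrial messenger RNAs receive a short poly(A) tail, and in several of them this tail completes the stop codon. The acinar cells that make up most of the pancreas secrete large amounts of digestive enzymes and hold many mitochondria.

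The deposited values are counts of unique molecular identifiers (UMIs), which mark single captured molecules. Library totals were 294077 to 416879 counts for WT, 452472 to 1626977 for KPC and 374432 to 647947 for KPC ASC KO, so every KPC library was deeper than every WT library, and the part of depth in the results was not tested. The 34 genes listed for acinar secretion, most of them digestive enzymes, took 55.3% of all counts for WT (range 51.3 to 62.4), 18.0% for KPC (4.66 to 42.4) and 49.6 ± 11.4% for KPC ASC KO. The defining enzymes of the labelled tissue were thus abundant in WT. Ucp1, among 3 brown fat genes, and Acta1 and Tnnt3, among 4 muscle genes in the table, were at 0 in all WT libraries. In WT the summed lists held 2.57 to 9.4 CPM of all counts (explained below) for brown fat and 0 to 6.8 for muscle. Pycard was at 58.6 ± 6.95 TMM-scaled CPM (a gene's counts scaled to a common library size, explained below) for WT (SD, n = 6), 70.0 ± 24.2 for KPC (n = 7) and 19.9 ± 11.7 for KPC ASC KO (n = 5). All 5 KPC ASC KO mice were below all 7 KPC mice (exact two-sided permutation test, adjusted p = 0.00325 over 3 comparisons), and none was at 0.

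Results are given under 2 scalings, because the sign of the change differs between them for most of these transcripts. CPM of all counts divides by the library total, so the acinar enzymes, which fell in KPC, enter the divisor. Scaling by the trimmed mean of M values (TMM) sets the bulk of the tested genes level between libraries. Of all genes, 6920 passed a filter on low counts and were tested with edgeR's quasi-likelihood test, with Benjamini-Hochberg adjusted p under 0.05 as the call. In KPC against WT the median log2 fold change of all tested genes was 0.06 under TMM and 1.30 under total counts. Between KPC ASC KO and KPC it was -0.05 and -1.05. A value for a mitochondrial transcript is therefore best read beside the median of all genes under the same scaling.

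Among the 35 transcripts, 16 passed the filter: 11 messenger RNAs, both ribosomal RNAs and the transfer RNAs mt-Tm, mt-Ts1 and mt-Td. The 19 others are accounted for below but were not tested. The 35 rows held 86273 counts over the 18 libraries, of which 53353 were messenger, 30650 ribosomal and 2270 transfer RNA.

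Part of the mitochondrial genome is repeated, almost letter for letter, in the nuclear genome, and the table has separate rows for those copies. A search of the GENCODE M21 transcripts with the sequences of the mitochondrial genes found 7 copies on chromosome 1 with at least 99% identity over at least 100 bases. The copies lie next to each other within chr1:24611535-24616197 (GRCm38) and run, by ascending coordinates, from the copy of mt-Nd4 to that of mt-Co1, the reverse of the order on the mitochondrial genome. They are the predicted genes Gm28439, Gm10222, Gm28438, Gm28437, Gm10925, Gm28661 and Gm29216. The sequences are shown because a 101-base read from such a stretch can be placed at either locus. The last 60 aligned bases of mt-Co3 (chrMT:8607-9390, plus strand), which encodes a catalytic-core subunit of cytochrome c oxidase, are the same in Gm28437:
mt-Co3: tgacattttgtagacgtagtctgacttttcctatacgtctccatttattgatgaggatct
Gm28437: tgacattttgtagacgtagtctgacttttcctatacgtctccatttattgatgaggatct
The same holds for mt-Co2 (chrMT:7013-7696, plus strand), another core subunit of that enzyme, and Gm28661:
mt-Co2: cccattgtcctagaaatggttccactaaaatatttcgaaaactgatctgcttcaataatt
Gm28661: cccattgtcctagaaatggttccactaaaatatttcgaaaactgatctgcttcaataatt
In the 483 bases that mt-Co1 (chrMT:5328-6872, plus strand) shares with Gm29216 there is 1 difference, A1066T, counted from 1 at the 5′ end of mt-Co1 and shown in capitals:
mt-Co1: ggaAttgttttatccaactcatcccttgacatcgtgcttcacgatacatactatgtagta
Gm29216: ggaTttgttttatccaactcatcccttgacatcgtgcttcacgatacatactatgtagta
For mt-Nd3 (chrMT:9459-9806, plus strand), a subunit of complex I, the only difference from Gm28438 is T3C, in the start codon:
mt-Nd3: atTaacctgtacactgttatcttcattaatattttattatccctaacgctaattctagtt
Gm28438: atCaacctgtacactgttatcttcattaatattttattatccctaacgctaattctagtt

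Most counts of these stretches stood in the rows of the nuclear copies. Gm28437 held 35929 counts against 5715 in mt-Co3, or 86.3% of the pair. The copy held 85.1% of the pair for mt-Co1, 83.2% for mt-Nd3, 82.7% for mt-Atp6, 81.2% for mt-Co2 and 94.4% for mt-Nd4l. For these 6 genes the copy had more counts than the mitochondrial row in 18 of 18 libraries. The exception was mt-Nd4, whose copy Gm28439 covers only its first 876 bases and held 14.8% of the pair. Of all 101-base windows of mt-Co3, 99.9% occur unchanged in Gm28437, and the share is 99.5% for mt-Co2 and mt-Atp6, 98.5% for mt-Nd4l, 97.6% for mt-Nd3, 60.7% for mt-Nd4 and 26.2% for mt-Co1. How reads that match both places were assigned is not given in the sources used here. The rows of mt-Co1, mt-Co2, mt-Co3, mt-Atp6, mt-Nd3, mt-Nd4l and, in its first part, mt-Nd4 are therefore uncertain, and for them the values with the copy added are given beside their own. On the mitochondrial genome mt-Ts1 and mt-Td lie between mt-Co1 and mt-Co2, and mt-Atp8 lies between mt-Co2 and mt-Atp6. Stretches of chromosome 1 between the annotated copies were not searched, and no transfer RNA gene reaches the 100 aligned bases required. The last 43 bases of mt-Atp8, which overlap mt-Atp6, occur unchanged in Gm10925. Beyond these bases, whether mt-Ts1, mt-Td and mt-Atp8 share reads with chromosome 1 was not tested, so their rows may be uncertain too. mt-Nd1, mt-Nd2, mt-Nd5, mt-Cytb and both ribosomal RNAs had no copy at 99% among the annotated transcripts. More distant copies, at 95% identity or more on chromosomes 2 and 13, matched mt-Co1, mt-Co2, mt-Nd2 and mt-Nd5. The largest of these, Gm13341, held 7622 counts against 6076 in mt-Co2.

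**Figure D1:**
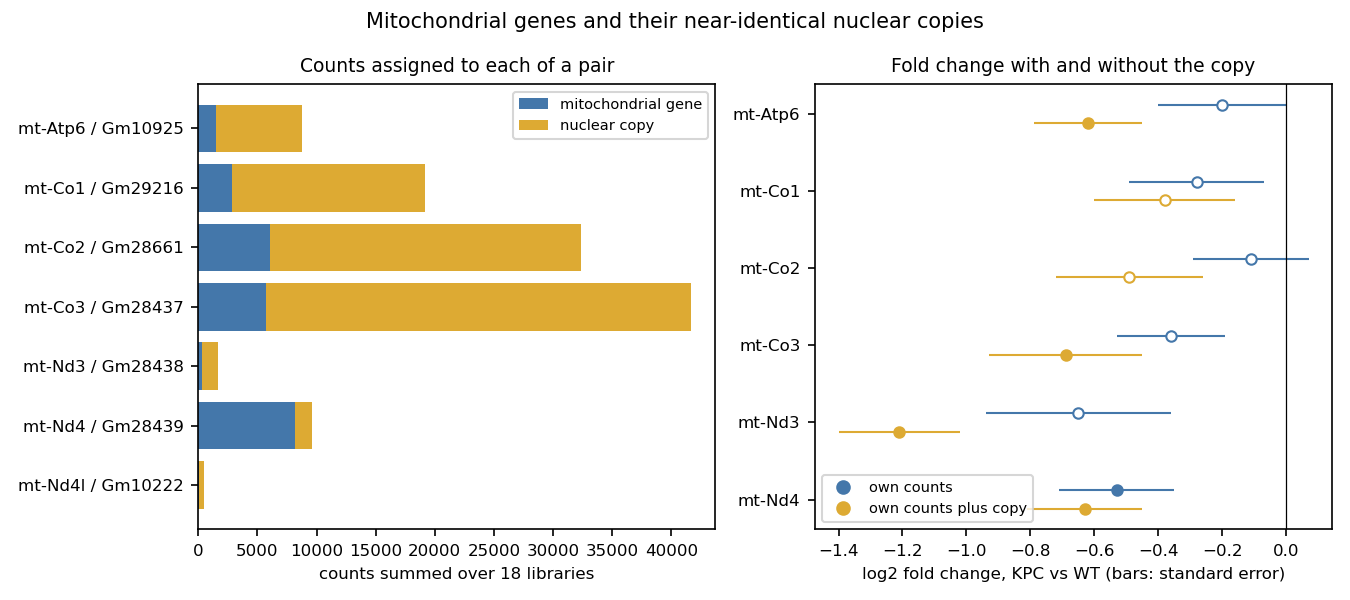
Left, counts summed over 18 libraries (x axis) in each mitochondrial gene and its near-identical nuclear copy (y axis), for instance 5715 in mt-Co3 and 35929 in Gm28437. Right, log2 fold change of KPC against WT under TMM scaling with its standard error, from the gene's own counts or with its copy added, where filled points passed the test; under total counts the own-count values of these 6 genes were above 0.

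Summed over the own rows of the 13 messenger RNAs, the level was lower in KPC than in WT under TMM scaling and higher under total counts. Under TMM it was 5172 ± 713 CPM for WT (SD, n = 6), 3646 ± 602 for KPC (n = 7) and 5920 ± 1367 for KPC ASC KO (n = 5). As a share of all counts it was 0.338 ± 0.0361% for WT, 0.551 ± 0.105% for KPC and 0.431 ± 0.0374% for KPC ASC KO. Under both scalings KPC and WT overlapped, through the highest KPC mouse (4439 CPM, against the lowest WT mouse at 4041) and the lowest KPC mouse (0.369%, against the highest WT mouse at 0.378%). All 5 KPC ASC KO mice had a higher share of all counts than all 6 WT mice, while the TMM values of these groups overlapped. With the nuclear copies added, the sums under TMM were 14468 ± 2064 CPM for WT, 9611 ± 1730 for KPC and 16380 ± 4129 for KPC ASC KO. The shares of all counts were then 0.943 ± 0.0739%, 1.45 ± 0.268% and 1.18 ± 0.0673%. KPC and WT again overlapped under both scalings. No test was made of a sum over these transcripts.

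The 2 ribosomal RNAs summed to 4188 ± 714 CPM for WT, 2023 ± 733 for KPC and 3904 ± 1449 for KPC ASC KO under TMM. All 7 KPC mice were below all 6 WT mice on that scale. As a share of all counts the same sums were 0.277 ± 0.0631%, 0.293 ± 0.0549% and 0.274 ± 0.0351%, and the 3 groups overlapped. The transfer RNA rows summed to 189 ± 88.9, 151 ± 42.3 and 255 ± 58.3 CPM under TMM, with overlap between all groups. Their share of all counts was 0.0128 ± 0.00682% for WT, 0.0232 ± 0.00787% for KPC and 0.0188 ± 0.00319% for KPC ASC KO. The 95% Wilson interval of a single library's share reached at most 0.021 percentage points to either side for messenger, 0.019 for ribosomal and 0.0049 for transfer RNA. These intervals cover counting error only.

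**Figure D2:**
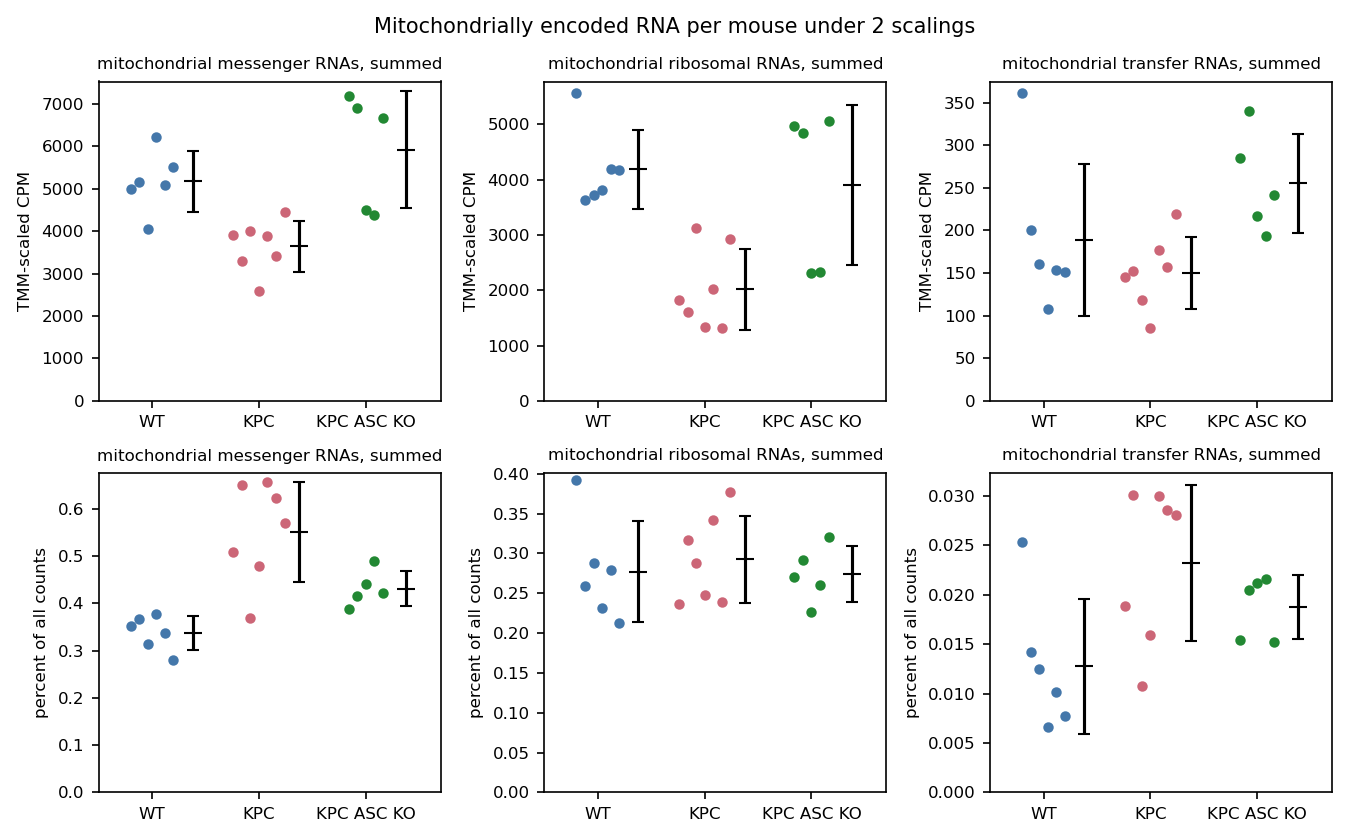
Summed level of mitochondrial messenger, ribosomal and transfer RNA in each mouse (points), with the mean and SD of each group (black), as TMM-scaled CPM (top) and percent of all counts (bottom). Counts in the nuclear copies are not included. Under TMM the 7 KPC mice lie between 1316 and 3122 CPM for ribosomal RNA, below the WT range of 3642 to 5564, whereas as a percent of all counts these groups overlap.

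In KPC against WT under TMM scaling, 7 of the 16 tested transcripts fell and 0 rose, beside 29.9% of all tested genes called, 14.8% as higher and 15.1% as lower. The 7 were both ribosomal RNAs, mt-Nd1, mt-Nd2, mt-Nd4, mt-Cytb and mt-Atp8. The median log2 fold change of the 16 was -0.61, and 15 of the 16 lay below the median of all tested genes. Under total-count scaling 10 of the 16 rose and 0 fell, beside 79.8% of all tested genes called, 76.9% as higher and 2.88% as lower. Their median was then 0.60, and again 15 of 16 lay below the median of all tested genes. Measured from the all-gene median, the 16 stood at -0.67 under TMM and -0.70 under total counts.

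**Figure D3:**
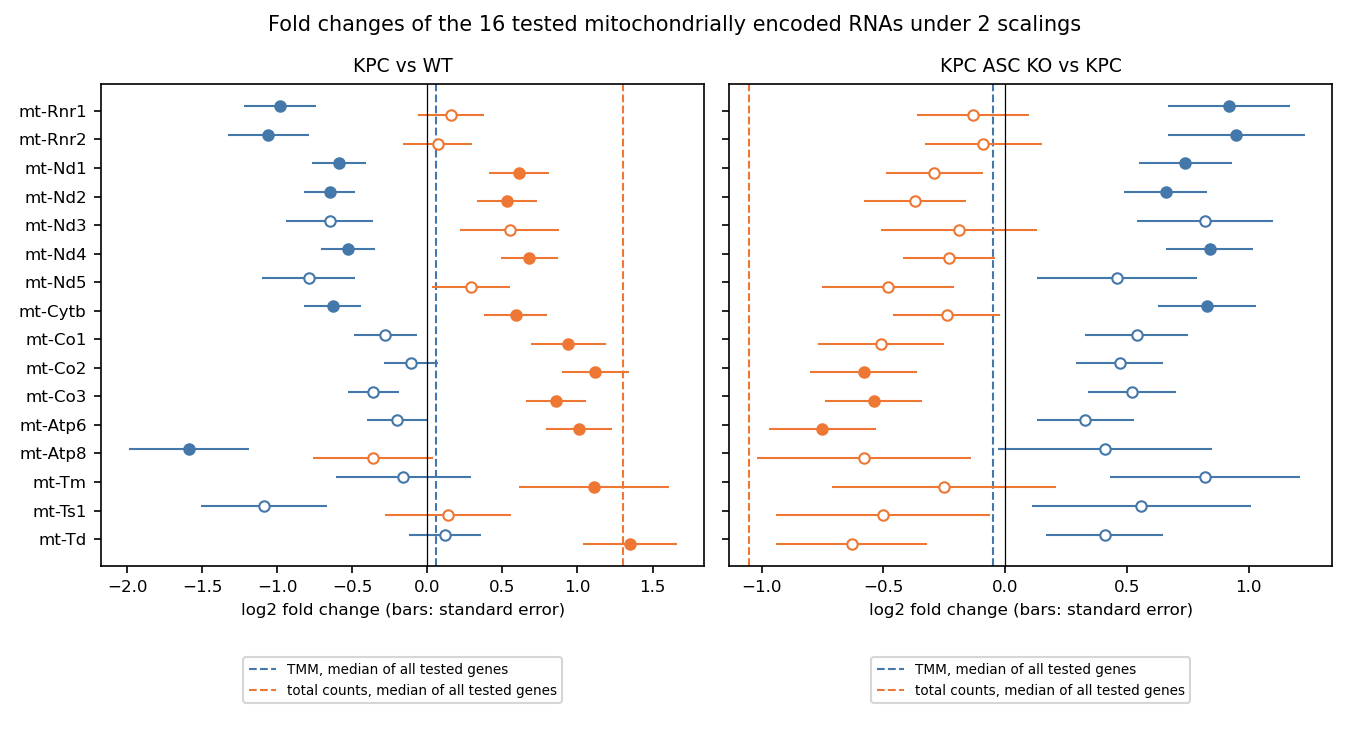
Log2 fold change with its standard error (x axis) of the 16 tested transcripts (y axis) in KPC against WT (left) and KPC ASC KO against KPC (right), under TMM (blue) and total-count scaling (orange); filled points passed the test and dashed lines mark the median of all 6920 tested genes. The sign differs between scalings for most transcripts, and under both scalings 15 of 16 lie below the dashed line on the left and 16 of 16 above it on the right.

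The ribosomal RNAs mt-Rnr1 and mt-Rnr2 form the small and large subunits of the mitochondrial ribosome. mt-Rnr2 ran from 3073 to 4771 CPM in WT (median 3497) and from 1129 to 2654 in KPC (median 1595) under TMM, so the groups did not overlap. Its TMM values for KPC ASC KO were 4305, 4110, 1959, 1975 and 4433 CPM, with 3 mice in the WT range and 2 in the KPC range. As CPM of all counts mt-Rnr2 did not split in this way. On that scale it ran from 1917 to 2804 for KPC ASC KO, 1876 to 3363 for WT and 2054 to 3273 for KPC. The change in KPC against WT was -1.06 on the log2 scale (SE 0.27, adjusted p = 0.00522) under TMM and 0.07 under total counts (adjusted p = 0.79). mt-Rnr1 ran from 470 to 793 CPM in WT and from 145 to 468 in KPC, again without overlap. It changed by -0.98 (SE 0.24, adjusted p = 0.00483) under TMM and by 0.16 under total counts (adjusted p = 0.501). Both ribosomal RNAs thus stood below the median gene by over 1 log2 unit under either scaling, although under total counts neither differed from WT at the threshold. The ratio of mt-Rnr2 to mt-Rnr1 counts overlapped between groups, at 6.43 ± 0.761 for WT, 6.19 ± 1.27 for KPC and 6.06 ± 0.679 for KPC ASC KO.

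Complex I takes electrons from NADH, and 7 of its core subunits are mitochondrially encoded. mt-Nd2 ran from 308 to 486 CPM in WT (median 386) and from 191 to 322 in KPC (median 255), and 6 of the 7 KPC mice were below the lowest WT mouse. Its log2 fold change was -0.65 (SE 0.17, adjusted p = 0.00527) under TMM and 0.53 (adjusted p = 0.0214) under total counts. mt-Nd1 ran from 335 to 717 CPM in WT and from 254 to 514 in KPC, and the groups overlapped through 1 WT mouse at 335, the other 5 being at 600 or above. mt-Nd1 changed by -0.59 (SE 0.18, adjusted p = 0.0175) under TMM and by 0.61 (adjusted p = 0.0069) under total counts. mt-Nd4 ran from 547 to 934 CPM in WT and from 396 to 734 in KPC, and changed by -0.53 (SE 0.18, adjusted p = 0.0253) under TMM and by 0.68 (adjusted p = 0.00224) under total counts. With Gm28439 added, mt-Nd4 ran from 708 to 1115 CPM in WT and from 452 to 846 in KPC under TMM. As CPM of all counts this pair was at 647 ± 80.1 in WT and 963 ± 168 in KPC, and the groups overlapped on both scales. The TMM call for mt-Nd4 was lost when WT mouse 1197, 1213 or 1238 or KPC mouse 89 or 154 was left out, with adjusted p between 0.0519 and 0.06. It was also lost in limma-voom (adjusted p = 0.0531) and without the filter on low counts (0.0996), where mt-Nd1 lost its call too (0.0581).

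The other complex I transcripts did not pass under TMM. mt-Nd5, the longest of them, ran from 90.9 to 191 CPM in WT and from 47.2 to 209 in KPC, where mouse 48 held the 209 and the other 6 mice at most 91.5. Its log2 fold change was -0.79 (SE 0.31, adjusted p = 0.0609), and without KPC mouse 48 it was -1.17 (adjusted p = 0.000294). With all mice it passed in limma-voom, at -1.06 (adjusted p = 0.00807), and under total counts it was at 0.29 (adjusted p = 0.29). mt-Nd3 was at -0.65 (SE 0.29, adjusted p = 0.0954) from its own 272 counts and at -1.21 (SE 0.19, adjusted p = 0.000156) with Gm28438 added, under TMM. With the copy added, mt-Nd3 ran from 172 to 289 CPM in WT and from 74.9 to 144 in KPC under TMM, without overlap. As CPM of all counts it was at 153 ± 36.6 in WT and 150 ± 19.9 in KPC. mt-Nd4l held 28 counts and mt-Nd6, which lies on the other strand and overlaps mt-Nd5 by 14 bases, held 39, so neither was tested. The copy of mt-Nd4l, Gm10222, fell by 1.78 (SE 0.27, adjusted p = 8.48e-05) under TMM, and was at -0.56 (adjusted p = 0.0821) under total counts. Together with Gm10222, mt-Nd4l ran from 67.9 to 145 CPM in WT and from 16.2 to 45.0 in KPC under TMM, without overlap. As CPM of all counts this pair was at 61.4 ± 23.4 in WT and 42.7 ± 11.3 in KPC, with overlap.

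mt-Cytb encodes cytochrome b, the only mitochondrially encoded subunit of complex III. It was the messenger RNA with the most counts per length in its own row, at 1598 ± 289 CPM per kilobase in WT under TMM (SD, n = 6). It ran from 1395 to 2317 CPM in WT (median 1793) and from 957 to 1416 in KPC (median 1255), and 6 of 7 KPC mice were below the lowest WT mouse. The log2 fold change was -0.63 (SE 0.19, adjusted p = 0.0146) under TMM and 0.59 (adjusted p = 0.0113) under total counts. The 5 KPC ASC KO mice held 2621, 2414, 1570, 1506 and 2381 CPM, all above the highest KPC mouse. Its share of the counts in all mitochondrial messenger rows was 35.2% for WT, 32.6% for KPC and 35.3% for KPC ASC KO. With the nuclear copies counted as messenger RNA, the share of mt-Cytb was 12.6%, 12.4% and 12.8%.

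mt-Co1, mt-Co2 and mt-Co3 encode the catalytic core of cytochrome c oxidase, complex IV. None of them passed in KPC against WT under TMM from its own counts, with log2 fold changes of -0.28, -0.11 and -0.36. mt-Co2 ran from 301 to 645 CPM in WT and from 265 to 561 in KPC, with wide overlap. Under total counts all 3 rose, by 0.94 for mt-Co1 (adjusted p = 0.00182), 1.12 for mt-Co2 (adjusted p = 0.000115) and 0.86 for mt-Co3 (adjusted p = 0.000529). With the nuclear copies added, where 30% of all genes were called, 14.6% as higher and 15.5% as lower, mt-Co3 fell by 0.69 under TMM (SE 0.24, adjusted p = 0.0363), while mt-Co1 was at -0.38 (SE 0.22) and mt-Co2 at -0.49 (SE 0.23, adjusted p = 0.108) and did not pass. Together with Gm28437, mt-Co3 ran from 3592 to 5924 CPM in WT and from 1880 to 3381 in KPC under TMM, without overlap. As CPM of all counts the same pair was higher in KPC, at 4219 ± 704 against 2917 ± 339 in WT, with overlap.

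mt-Atp6 and mt-Atp8 encode membrane subunits of the ATP synthase and are read from 1 joint messenger RNA. Their annotated genes overlap by 43 bases on the same strand, shown in capitals in mt-Atp8 (chrMT:7766-7969, plus strand), so a read from those bases belongs to both:
mt-Atp8: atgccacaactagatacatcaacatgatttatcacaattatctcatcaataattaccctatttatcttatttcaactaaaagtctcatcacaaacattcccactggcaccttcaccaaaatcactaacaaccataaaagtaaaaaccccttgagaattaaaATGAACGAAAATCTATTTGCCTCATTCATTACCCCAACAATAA
mt-Atp8 fell by 1.59 in KPC against WT under TMM (SE 0.40, adjusted p = 0.00464), the lowest fold change of the 16, and was at -0.36 under total counts (adjusted p = 0.394). It rested on few counts, 200 in all 18 libraries together. A library held 5 to 21 of them in WT, 8 to 26 in KPC and 1 to 9 in KPC ASC KO. Under TMM mt-Atp8 ran from 21.2 to 71.5 CPM in WT (median 30.9) and from 6.83 to 33.6 in KPC (median 12.0). Without KPC mouse 48, which held the 33.6, no KPC mouse exceeded 15.6 CPM. KPC ASC KO mice held 17.1, 3.91, 13, 14.8 and 38.0 CPM, and 4 of these 5 values are below the lowest WT mouse. The 43 bases that mt-Atp8 shares with mt-Atp6 also occur unchanged in Gm10925. Whether mt-Atp8 shares reads with the stretch of chromosome 1 between Gm10925 and Gm28661 was not tested. mt-Atp6 stood at -0.20 (SE 0.20, adjusted p = 0.468) from its own counts under TMM and at 1.01 under total counts (adjusted p = 0.00029). With its copy Gm10925 added, it fell by 0.62 under TMM (adjusted p = 0.00961), from 768 to 1063 CPM in WT to between 433 and 737 in KPC, whereas as CPM of all counts the pair was at 599 ± 98.4 in WT and 892 ± 148 in KPC. For every 100 counts in the mt-Atp6 row, the mt-Atp8 row had 29.5 ± 15.4 for WT, 12.7 ± 7.45 for KPC and 12.8 ± 6.99 for KPC ASC KO, and the 3 groups overlapped. This ratio leaves out Gm10925, which held 83.4% to 88.6% of the mt-Atp6 pair in WT, 79.8% to 83.7% in KPC and 84.2% to 86.9% in KPC ASC KO. The ratio with the copy added was not computed.

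**Figure D4:**
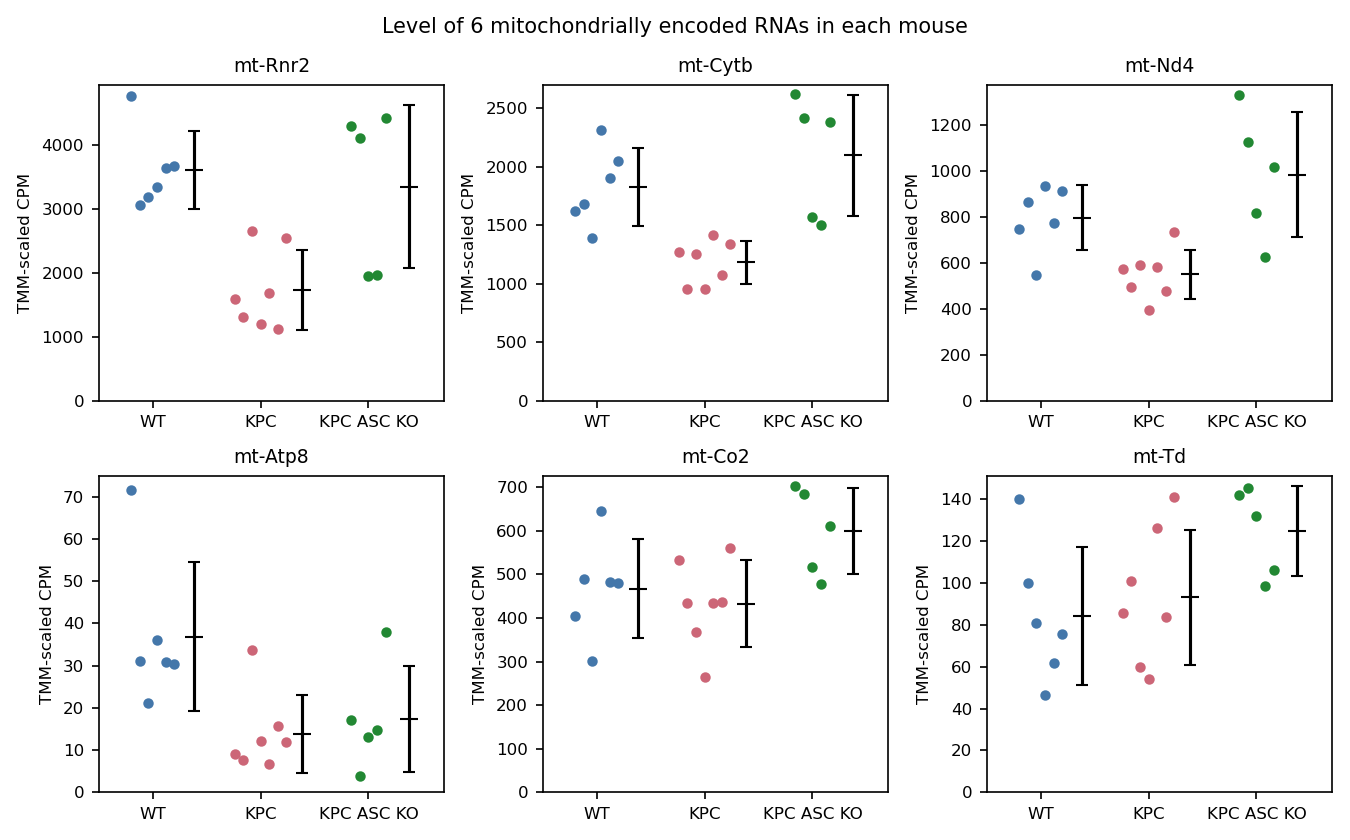
TMM-scaled CPM of 6 mitochondrially encoded RNAs in each mouse (points), with the mean and SD of each group (black). mt-Rnr2 in KPC (1129 to 2654) lies below the WT range (3073 to 4771) and mt-Cytb in KPC ASC KO lies above the KPC range, whereas mt-Co2 and mt-Td overlap between all groups; under total counts mt-Rnr2 overlapped between KPC and WT, and so did mt-Cytb between KPC ASC KO and KPC.

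Transfer RNAs carry amino acids to the ribosome, are short, and in their mature form end in CCA without a poly(A) tail. mt-Td, for aspartate, held 1327 of the 2270 transfer RNA counts. Its sequence (chrMT:6942-7011, plus strand) is shown as that of the most counted transfer RNA:
mt-Td: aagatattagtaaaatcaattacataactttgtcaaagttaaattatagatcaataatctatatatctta
mt-Td ran from 46.4 to 140 CPM for WT, from 54.2 to 141 for KPC and from 98.3 to 145 for KPC ASC KO under TMM. It was the one tested transcript above the all-gene median in KPC against WT, at 0.12 (SE 0.24, adjusted p = 0.735) under TMM and 1.35 (SE 0.31, adjusted p = 0.000601) under total counts. mt-Ts1, for serine, lies on the minus strand and overlaps the end of mt-Co1, on the plus strand, by 3 bases. The use of strand in counting is not given. mt-Ts1 was at -1.09 (SE 0.42, adjusted p = 0.0555) under TMM and 0.14 (adjusted p = 0.756) under total counts. WT mouse 69 held 116 CPM where the other 5 WT mice had 15.5 to 40.4, and without it the TMM value was -0.44 (adjusted p = 0.451). When WT mouse 1202 or 1213 or KPC mouse 154 or 210 was left out, mt-Ts1 passed, with adjusted p between 0.0242 and 0.044. Whether mt-Td and mt-Ts1 share reads with the stretch of chromosome 1 between Gm28661 and Gm29216 was not tested. mt-Tm, for methionine, was at -0.16 (SE 0.45, adjusted p = 0.819) under TMM and 1.11 (adjusted p = 0.0434) under total counts.

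The other 17 transfer RNAs had between 1 and 135 counts in all 18 libraries together. The most counted of them, mt-Tp for proline, is encoded on the minus strand. It was found in every library and under TMM stood between 1.86 and 16.8 CPM in KPC, 5.05 and 54.4 in WT, and 16.9 and 74.2 in KPC ASC KO. Every KPC ASC KO mouse was thus above every KPC mouse, on 3 to 19 counts a library, and under total counts these groups overlapped. mt-Ti had 83 counts, mt-Tt 50, mt-Tw 31 and mt-Tq 30, and the remaining 12 had 18 or fewer. A count of 0 allows up to 1.84 CPM of all counts in the deepest library and 10.2 in the shallowest (3 counts), so these genes were not detectable at this depth in the libraries without a count.

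In KPC ASC KO against KPC under TMM scaling, 6 of the 16 tested transcripts rose and 0 fell, beside 9.42% of all tested genes called, 6.73% as higher and 2.69% as lower. They were mt-Rnr1, mt-Rnr2, mt-Nd1, mt-Nd2, mt-Nd4 and mt-Cytb, which are 6 of the 7 called in KPC against WT. The KPC mice are shared by both comparisons. The median of the 16 was 0.61 against -0.05 for all tested genes. Under total counts 0 rose and 3 fell (mt-Co2, mt-Co3 and mt-Atp6), beside 70.1% of all tested genes called, 2.18% as higher and 67.9% as lower, and the median was -0.43. All 16 lay above the all-gene median under both scalings, by 0.66 under TMM and 0.63 under total counts in the median.

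Of the 16 tested transcripts, mt-Nd4 had the smallest adjusted p in this comparison under TMM. It was at 1328, 1125, 816, 627 and 1018 CPM in KPC ASC KO against 396 to 734 in KPC, and 4 of the 5 mice exceeded every KPC mouse. The log2 fold change was 0.84 (SE 0.18, adjusted p = 0.00903) under TMM and -0.23 (adjusted p = 0.276) under total counts. With Gm28439 added, mt-Nd4 ran from 766 to 1613 CPM in KPC ASC KO and from 452 to 846 in KPC under TMM. As CPM of all counts this pair was at 844 ± 53.5 and 963 ± 168, and the groups overlapped on both scales. mt-Cytb rose by 0.83 (SE 0.20, adjusted p = 0.0135) under TMM, against -0.24 (adjusted p = 0.302) under total counts. mt-Nd1 was at 729, 793, 440, 560 and 802 CPM and mt-Nd2 at 370, 477, 278, 323 and 549 CPM. Their changes were 0.74 (adjusted p = 0.0182) and 0.66 (adjusted p = 0.0196) under TMM, and -0.29 and -0.37 under total counts, where neither passed. KPC ASC KO mouse 377 was the lowest of its group for both of these transcripts under TMM.

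The ribosomal RNAs rose by 0.92 for mt-Rnr1 (SE 0.25, adjusted p = 0.0264) and 0.95 for mt-Rnr2 (SE 0.28, adjusted p = 0.0342) under TMM, against -0.13 and -0.09 under total counts. Of the 5 mice, 377 and 384 held 354 and 349 CPM of mt-Rnr1 under TMM, inside the KPC range, and the other 3 were above it. As CPM of all counts the 5 mice ran from 347 to 443, within the KPC range of 268 to 585. mt-Atp8 was at 0.41 (SE 0.44, adjusted p = 0.588), and mt-Nd5, mt-Nd3, mt-Co1, mt-Co2, mt-Co3, mt-Atp6 and the 3 tested transfer RNAs also did not pass under TMM. With the nuclear copies added to their counterparts, 9.4% of all genes were called in this comparison, 6.71% as higher. mt-Nd3 then rose by 0.97 (adjusted p = 0.00672), mt-Atp6 by 0.74 (adjusted p = 0.015) and mt-Co2 by 0.78 (adjusted p = 0.0421). mt-Co3 was then at 0.78 (adjusted p = 0.0535) and mt-Co1 at 0.68 (adjusted p = 0.0635). Under total counts the rows of the 7 copies ran from -0.36 for Gm29216 to 0.02 for Gm28439, and none passed.

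This comparison depended on single mice. The count of 6 called transcripts became 2 without KPC ASC KO mouse 318, 335 or 388, 3 without KPC mouse 89, and 9 without KPC mouse 210. mt-Nd4 kept its call whichever mouse was left out, and mt-Cytb lost it only without mouse 318 (adjusted p = 0.0505). mt-Rnr1 lost its call when any 1 of 6 mice was left out (KPC 40, 89 and 154, KPC ASC KO 318, 335 and 388), and mt-Rnr2 also without KPC mouse 145, with adjusted p up to 0.109. mt-Nd1 lost it without 318, 335 or 388, and mt-Nd2 without KPC mouse 89 or KPC ASC KO mouse 335 or 388. Without the filter on low counts mt-Rnr2 (adjusted p = 0.0758) and mt-Nd2 (0.0592) lost their calls, and in a fit of only these 2 groups mt-Rnr1 (0.0744), mt-Rnr2 (0.0858) and mt-Nd2 (0.0559) did. mt-Nd3 passed in limma-voom (0.92, adjusted p = 0.0278) and without KPC mouse 48 or 210 or KPC ASC KO mouse 384, mt-Co3 without KPC mouse 210 or KPC ASC KO mouse 377 or 384, mt-Nd5 without KPC mouse 48 (0.84, adjusted p = 0.0134) and mt-Co1 without KPC mouse 210.

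In KPC ASC KO against WT, none of the 16 tested transcripts passed, and edgeR called 0 of all tested genes. At an unadjusted p under 0.05 it listed 691 genes (9.99%), 1 of them mitochondrial, while DESeq2 called 8 genes and limma-voom 0, with no mitochondrial transcript among them. That transcript was mt-Atp8, at -1.18 (SE 0.47, adjusted p = 0.401) under TMM and -0.95 under total counts. The fold changes of the 16 ran from -1.18 to 0.66, with a median of 0.16 beside 0 for all genes. In simulated counts 12 of 100 changes of 2-fold were called in this comparison, so a transcript without a call may still differ. Under total counts all 5 KPC ASC KO mice were above all 6 WT mice for mt-Nd4 (644 to 799 against 424 to 613 CPM) and mt-Cytb (1420 to 1683 against 1043 to 1407), while 0 of the 16 transcripts and 0.0145% of all genes were called on that scale and the TMM values overlapped.

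Counts were also set against the messenger RNAs of the same compartment, which leaves out the nuclear genome. For each count in the messenger rows there were 0.823 ± 0.177 ribosomal counts for WT (0.614 to 1.12), 0.546 ± 0.132 for KPC (0.385 to 0.780) and 0.640 ± 0.110 for KPC ASC KO (0.515 to 0.759). The groups overlapped. With the nuclear copies counted as messenger RNA, the ratios were 0.294 ± 0.0591, 0.207 ± 0.0479 and 0.232 ± 0.0369, again with overlap. With the summed counts of the messenger rows alone as the library size, mt-Rnr1 fell by 0.53 (adjusted p = 0.034) and mt-Rnr2 by 0.60 (adjusted p = 0.0408) in KPC against WT. mt-Atp8 fell by 1.02 (adjusted p = 0.0465) and mt-Co2 rose by 0.41 (adjusted p = 0.0332), beside 41.4% of all tested genes called on that scale, 35.3% as higher and 6.07% as lower. When the nuclear copies were counted with the messenger RNAs, the ribosomal changes were -0.44 (adjusted p = 0.0655) and -0.51 (adjusted p = 0.0715), and mt-Nd3 fell by 0.62 (adjusted p = 0.00814) and mt-Td rose by 0.69 (adjusted p = 0.0339), beside 46.1% of all genes called, 40.9% as higher and 5.18% as lower. The calls within the compartment therefore differed according to where the nuclear copies were placed. Between KPC ASC KO and KPC no transcript passed on either of these scales. Without the copies 42.1% of all genes were called there, 2.67% as higher and 39.4% as lower, and with them 47.6%, 2.53% as higher and 45% as lower. Between KPC ASC KO and WT 0.0289% and 0.0145% of all genes were called, all lower and none of them mitochondrial.

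**Figure D5:**
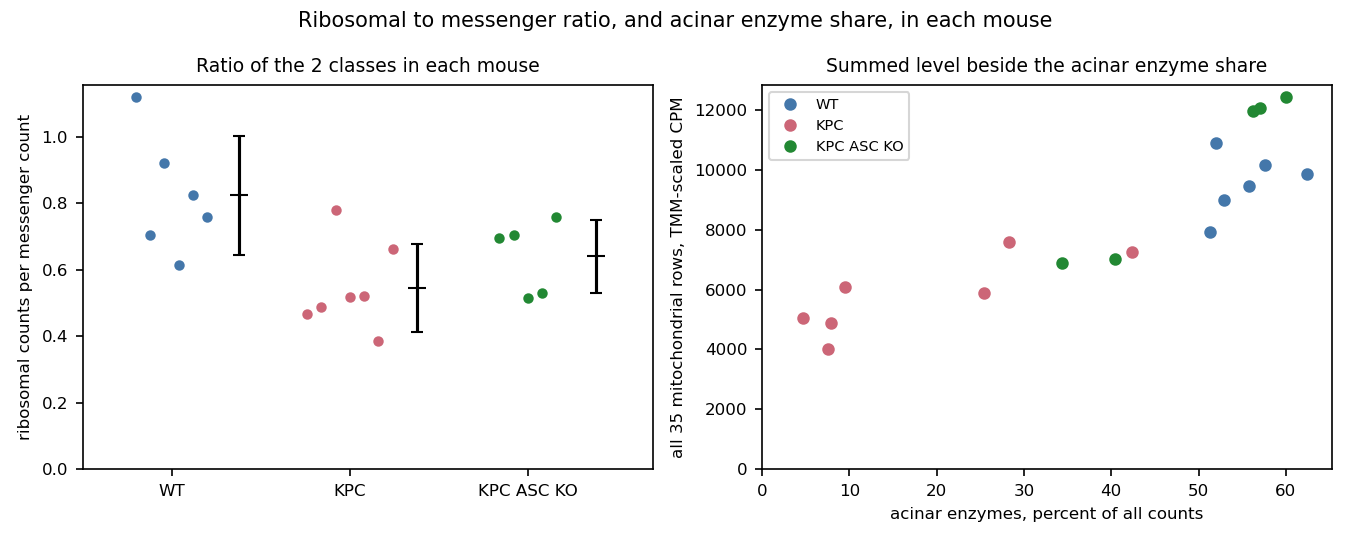
Left, ribosomal counts per messenger count in each mouse (points) with the mean and SD of each group (black), without the nuclear copies. WT runs from 0.614 to 1.12 and KPC from 0.385 to 0.780. With the copies counted as messenger RNA the group means were 0.294 for WT and 0.207 for KPC. Right, TMM-scaled CPM summed over the 35 mitochondrial rows (y axis) against the percent of all counts in acinar enzymes (x axis), 1 point per mouse; KPC runs from 4021 to 7594 CPM, below the WT range of 7922 to 10913, whereas as a percent of all counts these groups overlap.

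The level of acinar enzymes moved with these results under TMM, and its part in them was not tested beyond the covariate below. The 2 KPC ASC KO mice with the lowest mitochondrial sums under TMM, 377 and 384, had 40.4% and 34.4% of their counts in acinar enzymes, and the other 3 had at least 56.2%. As a percent of all counts, 377 and 384 were not the lowest, at 0.687% and 0.77% in a group range of 0.673% to 0.77%. The factors by which TMM multiplies the library size were 1.03 and 1.19 for 377 and 384, against 0.56, 0.62 and 0.66 for the other 3. The TMM sums therefore also carry this difference in scaling. Of 34 tested acinar genes, 32 fell in KPC against WT and 30 rose in KPC ASC KO against KPC under TMM, beside 15.1% of all tested genes called as lower and 6.73% as higher in these comparisons. Of 9 tested macrophage markers 7 rose in KPC against WT, and of 8 fibroblast markers 6 rose, beside 14.8% of all tested genes. Summed macrophage markers stood between 488 and 806 CPM of all counts for WT, 2035 and 4903 for KPC and 516 and 3095 for KPC ASC KO, and summed fibroblast markers between 486 and 783, 2150 and 5660, and 535 and 3254. In bulk tissue, fewer cells of a type and less RNA per cell cannot be told apart. In a fit that adds the acinar level, 0 of the 16 transcripts and 0 of all tested genes were called in either comparison with KPC. The median of the 16 was then -0.13 in KPC against WT and 0.32 in KPC ASC KO against KPC. All 7 KPC mice had a lower acinar share than all 6 WT mice, so acinar level and genotype cannot be told apart in that comparison.

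KPC mice 40, 89, 145 and 154 had stood apart in B cell transcripts in an earlier analysis of these data, and summed B cell markers ran from 48.6 to 1840 CPM of all counts in KPC against 48.8 to 132 in WT. Without these 4 mice the median of the 16 was -0.42 in KPC against WT and 0.47 in KPC ASC KO against KPC under TMM, and no transcript passed in either comparison, with 3 KPC mice left. In KPC against WT, mt-Atp8 then stood at -1.38 (adjusted p = 0.0709) and mt-Cytb at -0.64 (adjusted p = 0.136).

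Compared per length in WT under TMM, the rows differed widely between genes. mt-Rnr2 was highest at 2288 ± 388 CPM per kilobase, followed by mt-Cytb at 1598 ± 289 and mt-Td at 1200 ± 467, and the last 2 do not differ beyond their SDs. mt-Co2, mt-Co3, mt-Nd1, mt-Ts1, mt-Rnr1 and mt-Nd4 lay between 578 and 683 and do not differ beyond their SDs. mt-Nd5 was lowest of the tested genes at 73.7 ± 21, within the SD of mt-Nd3 at 80.4 ± 24.2. With its nuclear copy added, mt-Co3 was at 5752 ± 1262 and mt-Co2 at 4497 ± 883 CPM per kilobase, above mt-Rnr2. Priming at the poly(A) tail counts a molecule once whatever its length, so levels per length are not numbers of molecules.

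Nuclear genes for the same complexes were taken from lists by role. In KPC against WT under TMM, 25 of 37 tested subunits of complex I fell, 1 of 4 of complex II, 6 of 9 of complex III, 6 of 11 of complex IV and 13 of 18 of complex V, and 0 rose, beside 15.1% of all tested genes called as lower and 14.8% as higher. Their medians lay between -0.72 for complex I and -0.10 for complex II, and between 0.49 and 1.13 under total counts, beside 0.06 and 1.30 for all genes. Ndufb9, a subunit of complex I, was at 419 ± 28.7 CPM in WT and 157 ± 53.9 in KPC and fell by 1.44 (SE 0.20, adjusted p = 5.19e-05) under TMM, against -0.28 (adjusted p = 0.13) under total counts. Uqcrq of complex III fell by 1.43 (adjusted p = 5.69e-05) and Atp5o of complex V by 1.01 (adjusted p = 0.000392), against -0.28 and 0.18 under total counts. Cox6a1 of complex IV fell by 0.72 under TMM (adjusted p = 0.00109) and rose by 0.47 under total counts (adjusted p = 0.0261). In KPC ASC KO against KPC under TMM, 10 of the same 37 genes of complex I, 1 of 4 of complex II, 3 of 9 of complex III, 1 of 11 of complex IV and 4 of 18 of complex V rose and 0 fell, beside 6.73% of all tested genes called as higher. With 1 called gene each, the counts of complexes II and IV say little beside that share. The medians of these lists then lay between 0.15 for complex II and 0.37 for complex I, and between -0.87 and -0.65 under total counts, beside -0.05 and -1.05 for all genes. Complex II, which has no mitochondrially encoded subunit, had Sdhb as its 1 called gene under TMM. Sdhb stood at -0.96 (adjusted p = 0.00251) and 0.81 (adjusted p = 0.0252) in the 2 comparisons. Under total counts Sdhb was at 0.21 and -0.21, and neither passed. Sdha and Sdhc did not pass under TMM. On total counts Sdha (1.42 and -1.03) and Sdhc (0.97 and -0.84) passed in both comparisons, in the direction of most genes on that scale.

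Genes that serve the expression of mitochondrial DNA were counted in the same way. Of 65 tested proteins of the mitochondrial ribosome, 12 fell and 1 rose in KPC against WT under TMM, with a median of -0.22 (0.99 under total counts), a share that fell near the background of 15.1%. Mrps24 fell by 1.14 (adjusted p = 0.000134) and Mrps34 by 1.22 (adjusted p = 0.00129), against 0.02 and -0.02 under total counts. Of 10 tested genes for processing of mitochondrial RNA 3 fell under TMM, beside the same 15.1% of all genes: Hsd17b10, a part of mitochondrial RNase P (-0.85, adjusted p = 0.00763), Grsf1, an RNA granule protein (-0.87, adjusted p = 0.0358), and Fastk (-0.71, adjusted p = 0.0443). Under total counts these 3 turned to 0.34, 0.38 and 0.53, and none passed. Grsf1 rose by 1.06 in KPC ASC KO against KPC (adjusted p = 0.0288), against 0.00 under total counts. None of the 4 tested genes for replication passed under TMM in either comparison. Under total counts Dguok (1.51), Ssbp1 (1.05) and Tk2 (1.19) passed as higher in KPC against WT, and as lower in KPC ASC KO against KPC (-1.69, -1.51 and -1.39), in the direction of most genes on that scale. Mrpl12 was the only tested gene of the transcription list, at -0.28 (adjusted p = 0.519) under TMM and 0.89 (adjusted p = 0.016) under total counts in KPC against WT.

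Of 6 tested transfer RNA synthetases of the mitochondrion 2 fell in KPC against WT under TMM, beside 15.1% of all tested genes. Kars, which charges lysine transfer RNA in both cytosol and mitochondrion, fell by 1.08 (adjusted p = 0.00188), against 0.12 under total counts. Lars2, the mitochondrial leucyl-tRNA synthetase, was at 701 ± 213 CPM for WT, 185 ± 146 for KPC and 795 ± 366 for KPC ASC KO. It fell by 1.94 in KPC against WT (SE 0.47, adjusted p = 0.00589) under TMM and by 0.93 (adjusted p = 0.00746) under total counts. Between KPC and KPC ASC KO it rose by 2.12 (SE 0.48, adjusted p = 0.0155) and by 1.16 (adjusted p = 0.00426). Its direction was thus the same under both scalings in both comparisons. Whether reads of Lars2 are shared with another locus was not tested.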

How the data were processed

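Libraries were primed at the poly(A) tail, carried a UMI and were sequenced with 101-base reads, per the labels' protocols. The authors deposited whole-number counts of UMIs per gene, not normalised. The submitters' processing notes list edgeR 3.36.0, limma 3.50.0 and R 4.1.2 beside the builds mm10 and GRCm38. Aligner, treatment of reads with several matches and use of strand: not given in the sources used here. Groups were taken from the genotype labels, which give no batch, sex or litter. No 2 libraries of a group agreed within counting noise (chi-square over its degrees of freedom at least 2.35).

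The deposited counts were tested here with edgeR 4.0.16 in R 4.3.3 (filterByExpr with a minimum count of 10, TMM on the tested genes, robust quasi-likelihood fit of all 18 mice in 3 groups, Benjamini-Hochberg over 6920 genes). Standard errors are the absolute log2 fold change divided by the root of F. Total-count scaling used the full library totals. Pycard was compared as log2(CPM + 1) by an exact permutation test. Nuclear copies were found with blastn 2.17.0 among GENCODE M21 transcripts at 95% identity or more over 100 bases, and called near-identical at 99%; copies outside the annotated transcripts were not searched. The test was tried on simulated counts of the 6920 genes. Of 100 changes of 2-fold it called 24 in KPC against WT, 32 in KPC ASC KO against KPC and 12 in KPC ASC KO against WT. Of 100 changes of 4-fold it called 83, 85 and 66. Most changes of 2-fold were thus missed. DESeq2 1.42.0, limma 3.58.1 (voom), other scalings and filters, an acinar covariate and leaving out mice were alternatives. Every mt- row is named or counted. From each nuclear list the up to 3 tested genes with the smallest p in KPC against WT were eligible to be named. The members and the lists were chosen with earlier results of these data known.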

Additional observations from a re-analysis of the deposited data

Results flagged for a closer look

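In groups of this size, 1 value in a group was marked when its gap to the nearest other mouse exceeded the share of the group's range expected in 1 of 20 groups by chance. Of 81 groups of values examined, 7 were marked, where about 4 would be by chance. WT mouse 69 stood above the other WT mice under TMM for mt-Rnr1 (793 CPM against 470 to 569), mt-Rnr2 (4771 against 3073 to 3686), mt-Ts1 (116 against 15.5 to 40.4) and mt-Atp8 (71.5 against 21.2 to 36.1). WT mouse 1202 stood below the others for mt-Nd1 (335 CPM against 600 to 717). KPC mouse 48 stood above the other KPC mice for mt-Atp8 (33.6 CPM against 6.83 to 15.6) and mt-Nd5 (209 against 47.2 to 91.5). KPC mouse 48 had 42.4% of its counts in acinar enzymes, the highest of the KPC mice.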

How the results depend on the processing

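The sign of the mitochondrial fold changes depended on the scaling, while their place relative to the median gene did so less. The median of the 16 transcripts lay below that of all genes in KPC against WT, and above it in KPC ASC KO against KPC, in every setting except leaving out 1 mouse, where the median of all genes was not computed. With total counts, KPC against WT had 5320 genes higher and 199 lower, 10 mitochondrial transcripts higher and 0 lower, and a median of 0.60 over the 16. There mt-Rnr1 stood at 0.16, mt-Rnr2 at 0.065, mt-Nd1 at 0.61, mt-Nd2 at 0.53, mt-Nd4 at 0.68, mt-Cytb at 0.59, mt-Co1 at 0.94, mt-Co2 at 1.12, mt-Co3 at 0.86, mt-Atp6 at 1.01 and mt-Tm at 1.11, and Pycard at 1.36 (exact permutation test, adjusted p = 0.00189). In KPC ASC KO against KPC, total counts gave 151 genes higher and 4702 lower, 0 transcripts higher and 3 lower, a median of -0.43, and -0.13 for mt-Rnr1, -0.092 for mt-Rnr2, -0.29 for mt-Nd1, -0.37 for mt-Nd2, -0.23 for mt-Nd4, -0.24 for mt-Cytb, -0.58 for mt-Co2, -0.54 for mt-Co3 and -0.75 for mt-Atp6. Between KPC ASC KO and WT they gave 1 gene lower. Totals without acinar enzymes gave 1995 genes higher and 619 lower, 3 transcripts lower and a median of -0.28 in KPC against WT, then 302 higher and 865 lower, 2 transcripts higher and 0.29 in KPC ASC KO against KPC, and 1 higher and 2 lower in KPC ASC KO against WT. Scaling by mitochondrial messenger RNAs gave 2443 and 420 genes, 1 transcript higher (mt-Co2, 0.41) and 3 lower, and a median of -0.093, then 185 and 2728 genes, 0 transcripts, a median of -0.073 and -0.039 for mt-Nd2, and 2 genes lower with a median of -0.032. With the nuclear copies in that scaling, chosen after seeing the data, it gave 2827 and 358 genes, 1 transcript higher and 1 lower, a median of -0.052 and 0.011 for mt-Nd1, then 175 and 3113 genes, 0 transcripts, a median of -0.0060, -0.014 for mt-Nd1 and -0.10 for mt-Nd2, and 1 gene lower with a median of -0.074.

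Without a filter on low counts, 1565 genes were higher in KPC than WT, 338 lower in KPC ASC KO than KPC, and 8 higher and 4 lower in KPC ASC KO than WT; limma-voom gave 486 and 83 for the first 2 of these counts, and DESeq2 gave 3 higher and 5 lower in KPC ASC KO than WT. Fits of only the groups compared gave 203 higher and 62 lower with 3 transcripts higher in KPC ASC KO against KPC, and 4 higher and 3 lower against WT. The acinar covariate gave 0 genes and 0 transcripts in both comparisons with KPC, a median of -0.13 in KPC against WT, and 1 higher and 3 lower in KPC ASC KO against WT. Without KPC mice 40, 89, 145 and 154 there were 385 genes higher and 343 lower in KPC against WT, 0 and 1 in KPC ASC KO against KPC, 2 and 2 against WT, and 0 transcripts called.

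The shares of all counts, as log2 ratios of group means, were 0.70 for messenger and 0.08 for ribosomal RNA in KPC against WT, but -0.17 and -0.74 outside the acinar enzymes and -0.50 and -1.05 under TMM. Between KPC ASC KO and KPC they were -0.35 and -0.10, but 0.38 and 0.63, and 0.70 and 0.95. Between KPC ASC KO and WT messenger RNA moved from 0.35 to 0.21 and 0.19.

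Leaving out 1 mouse at a time, KPC against WT had 812 to 1148 genes higher, 904 to 1162 lower, 6 to 8 transcripts lower and a median of -0.66 to -0.53; KPC ASC KO against KPC had 167 to 673 higher, 28 to 393 lower, 2 to 9 transcripts higher and a median of 0.51 to 0.73; KPC ASC KO against WT had 0 to 2 genes each way and a median of 0.07 to 0.26. The shares ran from 0.66 to 0.78 and 0.01 to 0.20, from -0.43 to -0.31 and -0.16 to -0.03, and from 0.30 to 0.39 and -0.084 to 0.11 (0.11 without WT mouse 69, 0.04 without KPC ASC KO mouse 377, -0.02 with all mice). Of 528 other values for single transcripts, 25 changed sign with a call and 62 lost a call. The cause of these differences was not tested beyond what each setting changes. No paired analysis was possible because mouse numbers are not shared between groups. The depth limits the 19 untested transcripts to a description.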
